A study of Homo sapiens with 11 samples.

Results

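Tight junctions seal the space between neighboring epithelial cells and gap junctions connect their cytoplasms. The genes described here are the claudins, the TJP and PARD families, the connexins (GJA, GJB, GJC, GJD and GJE genes), and OCLN, F11R, JAM2, JAM3, CGN and CRB3, chosen by the symbol of the probe. The array held 45 probes for 43 such genes, of 22464 probes and 14941 genes with a probe of a single symbol. F11R had no probe of a single symbol and was not analysed here. Cells of the RT4 line, which came from a human bladder papilloma, were grown on crECM (Matrigel, a basement membrane extract, as a gel on a membrane insert) or on plastic. The crECM time points, 12 h and days 1, 2, 3, 4, 6, 7, 8 and 9, had 1 one-color array each, and plastic had 2 arrays. The labels name no added gene and no drug in either group, and the gel cultures were fed with medium holding fetal calf serum. The 9 crECM arrays are time points taken as 1 group, and nothing in the labels says that the 2 plastic arrays came from separate cultures, so that p-values measure only the spread between these arrays. All results come from 1 cell line.

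In an epithelium such as the urothelium, claudins and occludin cross the membrane and set which ions pass between cells. Junctional adhesion molecules (JAMs) lie beside them. TJP scaffolds and cingulin (CGN) tie these proteins to actin from the inner side, and the PARD and Crumbs proteins fix the border between the apical and the lateral membrane. Connexins assemble into channels through which small molecules pass from cell to cell.

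Levels are given in the unit of the deposited values, SDs of the noise peak above its zero point, after the regression that adjusts the arrays. A gene above 3 SD was taken as expressed above noise. On the plastic arrays 86.4% and 85.2% of probes were above 3 SD, but 53.8% and 44.4% against the noise peak of the raw intensities. On the crECM arrays these shares were 83.9% to 86.6% and 76.5% to 85.4%. A plastic level above 3 SD can thus stand at noise in the raw intensity. Before adjustment the plastic arrays were dimmer, since the raw median intensity lay between 224.2 and 481.5 on the crECM arrays and was 162 and 140.4 on the plastic arrays. Substrate and array handling therefore cannot be told apart. Values under 3 SD were raised to 3 SD before testing, and a fold against a group with an array under 3 SD depends on this floor. Of the 43 genes, 34 were above 3 SD on all 11 arrays, and TJP3 on none. This level alone does not mark a cell type, since all 4 leukocyte markers with a probe were above 3 SD on all 11 arrays as well. The marker genes of the junctions differed from each other: CLDN3 was above 3 SD on 8 of 9 crECM arrays and on neither plastic array, and CLDN7 on 2 of 9 crECM arrays and on neither plastic array.

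On crECM, 6 of the 40 junction genes that could be tested were higher than on plastic and 5 were lower. The higher ones were the claudins CLDN3, CLDN15 and CLDN17, the plaque protein gene CGN and the polarity genes PARD3 and PARD3B. The lower ones were CLDN14, TJP1, PARD6G and the connexins GJA1 and GJB5. For PARD6G both raw plastic intensities stood at noise, and its log2 change was 0.07 with values rebuilt from raw intensities. In RNA of whole cultures, fewer cells that express a gene and less RNA per cell cannot be told apart. The 40 genes passed a filter of more than 3 SD on at least 2 arrays, which TJP3, GJB2 and GJD4 did not. Of all 21480 probes tested, 22.8% were higher and 22.4% lower on crECM, or 45.2% in all, whereas the junction genes reached 15.0% higher, 12.5% lower and 27.5% in all. Their median log2 change was -0.02, beside 0.06 over all probes, and the median size of the change without its sign was 0.28, beside 0.49. Most changes were small, with 28 of the 40 genes, or 70.0%, under 1.5-fold either way, beside 57.6% of all probes. Only CLDN3 passed the test at 3-fold or more, 2.5% of the 40 genes beside 7.44% of all probes. Both of its plastic values stood at the floor, so that this call does not count as support for a change. For 11 of the 40 genes every crECM array lay on 1 side of both plastic arrays, 5 higher and 6 lower, a share of 27.5% beside 45.2% of all probes. When the values were rebuilt from raw intensities, 15 genes were higher and 3 lower, and without the regression that adjusts the arrays 34 were higher and none lower, while the median of all probes was shifted by 0.42 and 1.28 on the log2 scale.

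**Figure D1:**
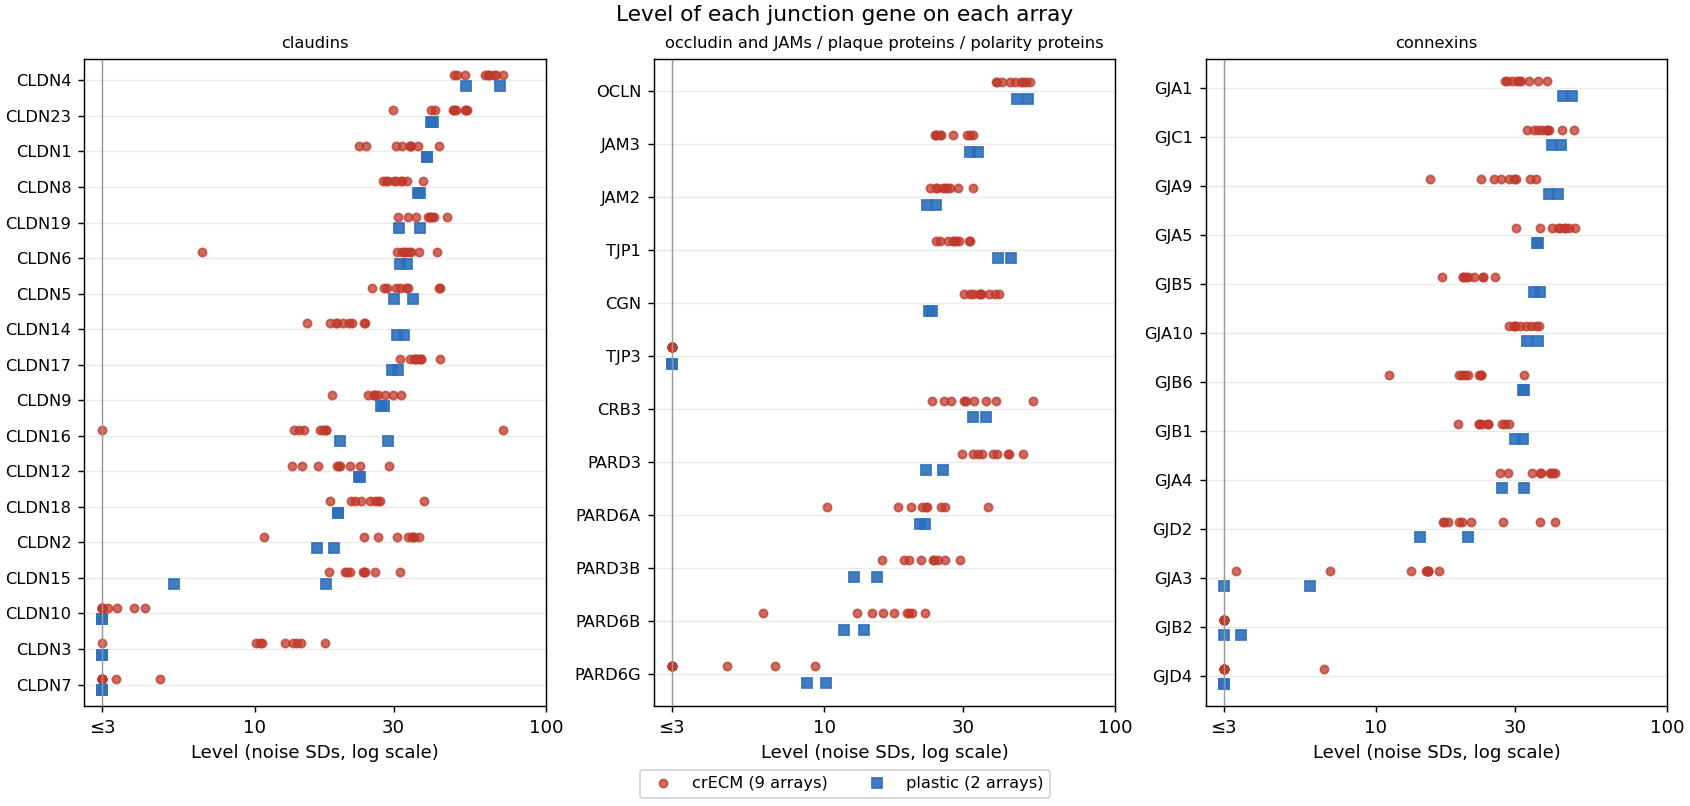
Level of each of the 43 junction genes on each array, in noise SDs on a log axis, with values at or under 3 SD drawn at 3. Circles are the 9 crECM arrays and squares the 2 plastic arrays. The circles of CGN, PARD3, PARD3B, CLDN15 and CLDN17 all lie right of both squares, and those of CLDN14, TJP1, GJA1, GJA9, GJB1 and GJB5 all lie left of both.

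**Figure D2:**
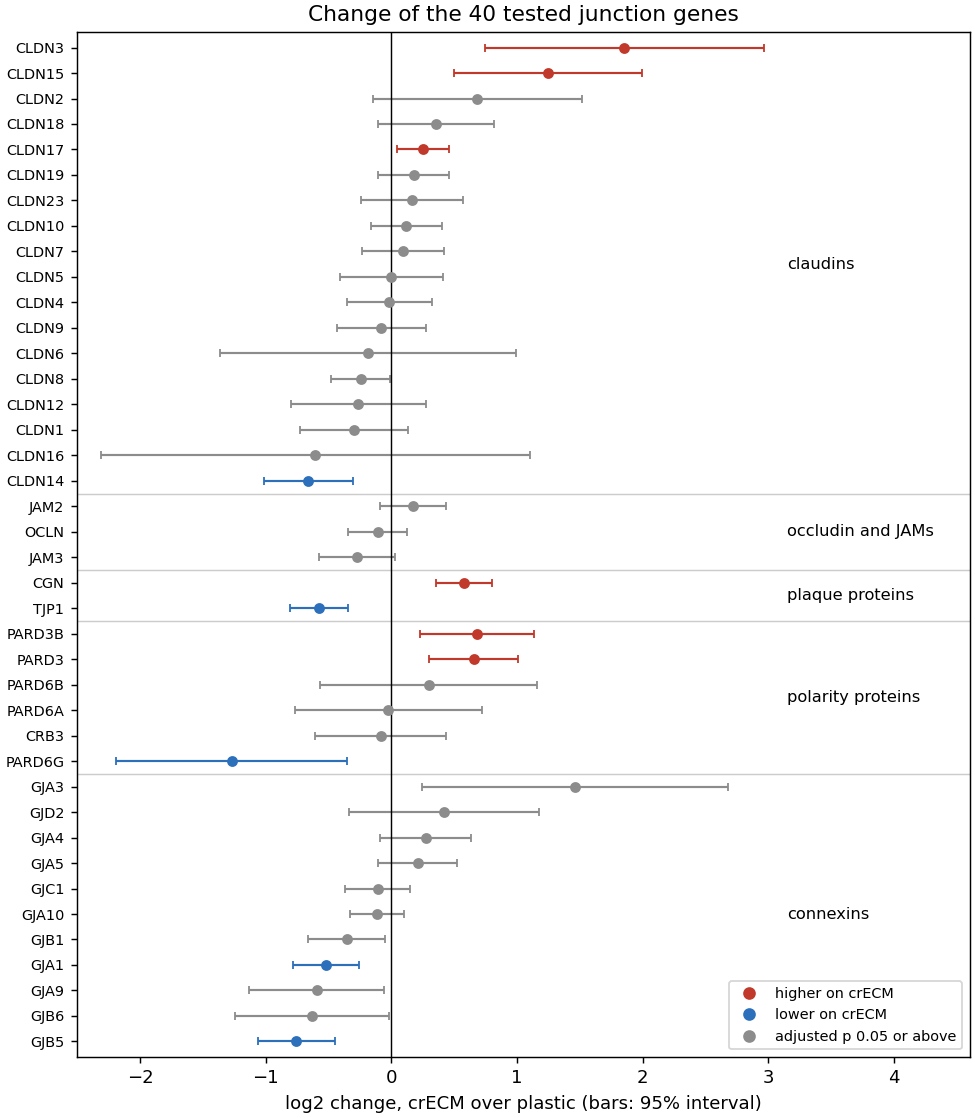
The log2 change, crECM over plastic, of the 40 tested junction genes with its 95% interval, grouped by role. The 6 genes higher on crECM and the 5 lower ones are colored, and the intervals of the 29 other genes are grey, 21 of them within 2-fold either way.

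Among the 18 claudins, 3 were higher on crECM, 1 was lower and 14 did not pass the test. Of all probes tested, 22.8% were higher and 22.4% lower. CLDN3, a claudin that tightens the barrier and binds the enterotoxin of Clostridium perfringens, was at 10.6 SD at 12 h and at 12.7, 17.5, 14.0, 10.1, 14.4, 10.4 and 13.5 SD on days 1, 2, 3, 4, 6, 7 and 8 on crECM. On day 9 it was at the lowest value of the array, as it was on both plastic arrays. Its raw intensity was between 122 and 374 through day 8 and 22.8 on the day 9 array, against -19.4 and -13.6 on plastic. CLDN3 was thus above noise on every crECM array but 1 and on no plastic array. With the floor of 3 SD its log2 change was 1.85 (SE 0.50, 95% interval 0.74 to 2.96, limma adjusted p = 0.0113), or 3.61-fold. CLDN3 passed the filter only through the crECM arrays, and both plastic values stand at the floor. With that floor its p and interval have no spread on plastic behind them and do not count as support for the change. The log2 change of CLDN3 was 0.76 with rebuilt values, 0.80 with quantile normalization and 3.26 with a floor at 1 SD. Without the regression it was 0.97, below the 1.28 of the median probe. The call was lost without a floor (adjusted p = 0.153) and with array weights (0.0539). An exact permutation test over the arrays, two-sided, gave p = 0.0545, where the smallest p that the 55 arrangements allow is 0.0182. Without the day 9 array the log2 change was 2.08 (adjusted p = 4.88e-05), but with either plastic array left out the adjusted p was 0.0787 and 0.0908. With 1 plastic array left, the spread is that of the crECM time points alone, and the lone plastic array is assumed to vary like them.

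CLDN4, which lies next to CLDN3 on chromosome 7 in GRCh38.p14 and binds the same toxin, did not follow it. Its level on crECM ran between 48.4 and 71.2 SD with a median of 63.2 SD, against 69.3 and 53.2 SD on plastic. The groups overlapped, with a log2 change of -0.02 and a 95% interval from -0.36 to 0.32 (adjusted p = 0.938). The difference between the changes of CLDN3 and CLDN4 was not tested. In the RefSeq promoter table of build GRCh38.p14, which held 30 of the 43 genes, the 250 bases before the start site of both neighbors are given, together with those of CGN, which was higher on crECM, and GJA1, which was lower. They are shown because these genes differ in their change. Capitals mark GGGCGG on either strand, the letters of a GC box, and TGANTCA, a looser form of the AP-1 site TGACTCA or TGAGTCA. The CLDN3 window is chr7:73770271-73770520 on the minus strand, and those of CLDN4, CGN and GJA1 are chr7:73830746-73830995, chr1:151511137-151511386 and chr6:121435396-121435645 on the plus strand.
CLDN3: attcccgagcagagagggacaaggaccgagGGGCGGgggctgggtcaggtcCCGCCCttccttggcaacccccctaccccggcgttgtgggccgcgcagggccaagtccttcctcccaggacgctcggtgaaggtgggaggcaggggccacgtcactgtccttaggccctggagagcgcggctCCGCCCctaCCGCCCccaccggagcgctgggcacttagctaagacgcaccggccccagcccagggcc
CLDN4: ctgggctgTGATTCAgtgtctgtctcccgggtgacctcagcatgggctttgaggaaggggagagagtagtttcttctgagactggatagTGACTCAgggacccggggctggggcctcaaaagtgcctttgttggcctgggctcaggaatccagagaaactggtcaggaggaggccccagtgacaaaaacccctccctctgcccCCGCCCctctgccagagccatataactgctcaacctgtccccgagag
CGN: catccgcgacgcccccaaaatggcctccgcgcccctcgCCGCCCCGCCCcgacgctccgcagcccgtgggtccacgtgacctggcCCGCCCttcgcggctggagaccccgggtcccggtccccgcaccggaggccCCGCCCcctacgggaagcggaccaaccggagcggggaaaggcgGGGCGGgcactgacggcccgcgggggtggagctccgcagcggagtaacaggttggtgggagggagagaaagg
GJA1: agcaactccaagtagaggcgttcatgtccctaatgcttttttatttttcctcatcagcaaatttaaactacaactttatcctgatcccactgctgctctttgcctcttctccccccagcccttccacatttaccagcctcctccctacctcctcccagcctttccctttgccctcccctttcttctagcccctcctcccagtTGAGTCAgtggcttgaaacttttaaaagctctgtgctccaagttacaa
GGGCGG was matched 4 times before CLDN3, 5 times before CGN, 1 time before CLDN4 and not before GJA1, and 42.6% of the 35116 windows of the table hold it. TGANTCA was matched 2 times before CLDN4, as TGATTCA at 242 and TGACTCA at 161 bases, and 1 time before GJA1, as TGAGTCA at 48 bases. This looser form is held by 6.57% of all windows. CANNTG, the E-box read on both strands, was matched 1 time before CGN and 1 time before GJA1, in no other window shown, and in 61.8% of all windows. Neither CAGGTG or CACCTG, which are cases of it (17.5% of windows), nor TATAAA on either strand (10.7%) was found in the windows shown. These matches describe letters and not binding.

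CLDN15, which forms a paracellular pore for cations, had a level of 18.0 to 31.5 SD on crECM with a median of 23.5 SD, against 17.6 and 5.29 SD on plastic. All crECM arrays were above both plastic arrays, the nearest by a small margin. On the second plastic array its raw intensity of 20 lay below the noise peak of that array, at 29. On the first, 123.4 was less than 3 noise SDs above the peak. The log2 change of CLDN15 was 1.25 (SE 0.34, adjusted p = 0.0112), but without the second plastic array it was 0.38. The other CLDN15 probe had -0.17 (adjusted p = 0.428). CLDN2, another cation pore, was between 10.8 and 36.7 SD on crECM with a median of 33.7 SD, against 16.5 and 18.7 SD on plastic. The raw plastic intensities of CLDN2, 112 and 117.5, were less than 3 noise SDs above the noise peaks of their arrays. CLDN2 was above plastic on every crECM day but day 7, and its log2 change of 0.68 did not pass the test (95% interval -0.15 to 1.51, adjusted p = 0.163). CLDN17, an anion pore in cell models, had a small change, with 31.6 to 43.2 SD on crECM against 31.1 and 29.7 SD on plastic (log2 change 0.25, adjusted p = 0.0477, and 0.167 or 0.299 without either plastic array). CLDN14, a claudin of the inner ear and kidney, was the 1 claudin lower on crECM. It was between 15.1 and 24.0 SD on crECM with a median of 20.1 SD, against 30.8 and 32.6 SD on plastic, with no overlap (log2 change -0.66, SE 0.16, adjusted p = 0.00647). The call was lost with either plastic array left out (adjusted p = 0.0524 and 0.0948) and with rebuilt values (log2 change -0.34, adjusted p = 0.0579).

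CLDN1, needed for the skin barrier, was between 22.9 and 43.0 SD on crECM with a median of 34.1 SD, against 39.2 and 39.1 SD on plastic. One crECM array, day 2, lay above plastic and the 8 others below, and the log2 change of -0.30 did not pass the test (95% interval -0.72 to 0.13, adjusted p = 0.239). CLDN7, a claudin of many epithelia, exceeded 3 SD only on day 3 (3.34 SD) and day 6 (4.72 SD). At this signal no change of CLDN7 was detectable, and its log2 change of 0.09 mostly compares values at the floor (adjusted p = 0.647). CLDN10 was also close to noise, at most 4.20 SD on crECM and under 3 SD on plastic. CLDN16, a renal claudin, varied most widely on crECM, between 2.65 SD on day 2 and 71.4 SD on day 4, and its interval for the log2 change ran from -2.31 to 1.10. The claudins CLDN5, CLDN6, CLDN8, CLDN9, CLDN12, CLDN18, CLDN19 and CLDN23 had log2 changes between -0.26 and 0.36, and none passed the test.

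Neither occludin nor the JAM genes passed the test. OCLN, whose protein regulates the barrier together with the claudins, was between 38.8 and 50.9 SD on crECM with a median of 45.1 SD, against 45.9 and 50.3 SD on plastic. The plastic values lay inside the crECM range (log2 change -0.11, 95% interval -0.34 to 0.13, adjusted p = 0.437). JAM2 had a log2 change of 0.17 and JAM3 one of -0.27, with adjusted p = 0.270 and 0.126. Their 95% intervals, -0.09 to 0.43 and -0.57 to 0.03, leave room for changes below 2-fold.

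The plaque protein genes went both ways. TJP1, the scaffold that binds claudins and occludin and links them to actin, was between 24.3 and 31.6 SD on crECM with a median of 27.8 SD, against 39.6 and 43.6 SD on plastic. Every crECM array was below both plastic arrays, with a log2 change of -0.57 (SE 0.11, adjusted p = 0.00112), or 1.49-fold lower. CGN, whose protein binds that scaffold, was between 30.3 and 39.9 SD on crECM with a median of 34.5 SD, against 23.4 and 22.9 SD on plastic. Every crECM array was above both, with a log2 change of 0.58 (SE 0.10, adjusted p = 0.00078). The raw intensity of CGN on the second plastic array, 157, was less than 3 noise SDs (45.9 each) above the noise peak, at 29. For both genes the exact permutation p was 0.0182, the smallest possible. With either plastic array left out, on the same assumption as above, the adjusted p was 0.0152 and 0.0244 for CGN and 0.0130 and 0.0462 for TJP1. Without the regression the log2 change of TJP1 was 0.61 and that of CGN 2.18, below and above the 1.28 of the median probe. TJP3, a related scaffold, stayed under 3 SD on all 11 arrays.

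Of the 6 polarity genes, 2 were higher, 1 was lower and 3 did not pass, beside 22.8% of all probes higher and 22.4% lower. PARD3, which with PARD6 and atypical protein kinase C forms the apical complex, was between 29.8 and 48.2 SD on crECM with a median of 38.1 SD, against 25.5 and 22.4 SD on plastic. Its log2 change was 0.65 (SE 0.16, adjusted p = 0.00636), with all crECM arrays above plastic, and 0.56 without the second plastic array (adjusted p = 0.100). PARD3B, its relative, was between 15.8 and 29.2 SD on crECM with a median of 23.6 SD, against 12.7 and 15.2 SD on plastic. The log2 change was 0.68 (adjusted p = 0.0192), and at the other PARD3B probe 0.57 (adjusted p = 0.0713). With quantile normalization the first of these was 0.29 (adjusted p = 0.242), and with either plastic array left out its adjusted p was 0.180 and 0.0719. PARD6G was above 3 SD on crECM only on days 2, 3 and 8, at 6.76, 9.31 and 4.63 SD, against 10.1 and 8.76 SD on plastic. Day 3 thus lay between the plastic values and the other crECM arrays below both. Its log2 change was -1.27 (SE 0.42, adjusted p = 0.0285), and without either plastic array the adjusted p was 0.180 and 0.130. With rebuilt values the log2 change of PARD6G was 0.07 (adjusted p = 0.721). Its raw intensity was 197, 254 and 120 on days 2, 3 and 8, against 58.1 and 40 on plastic. The noise peaks of the plastic arrays lay at 26.75 and 29, with SDs of 39.4 and 45.9. Both plastic intensities thus stood within that SD of the peak, at noise. Those of PARD3B, 78.7 and 86.9 at the probe that decided its call, were also less than 3 such SDs above the peaks. So was that of PARD3 on the second plastic array, 152.3. PARD6A, PARD6B and CRB3, the short Crumbs protein of epithelia, had log2 changes of -0.02, 0.30 and -0.08, none past the test.

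**Figure D3:**
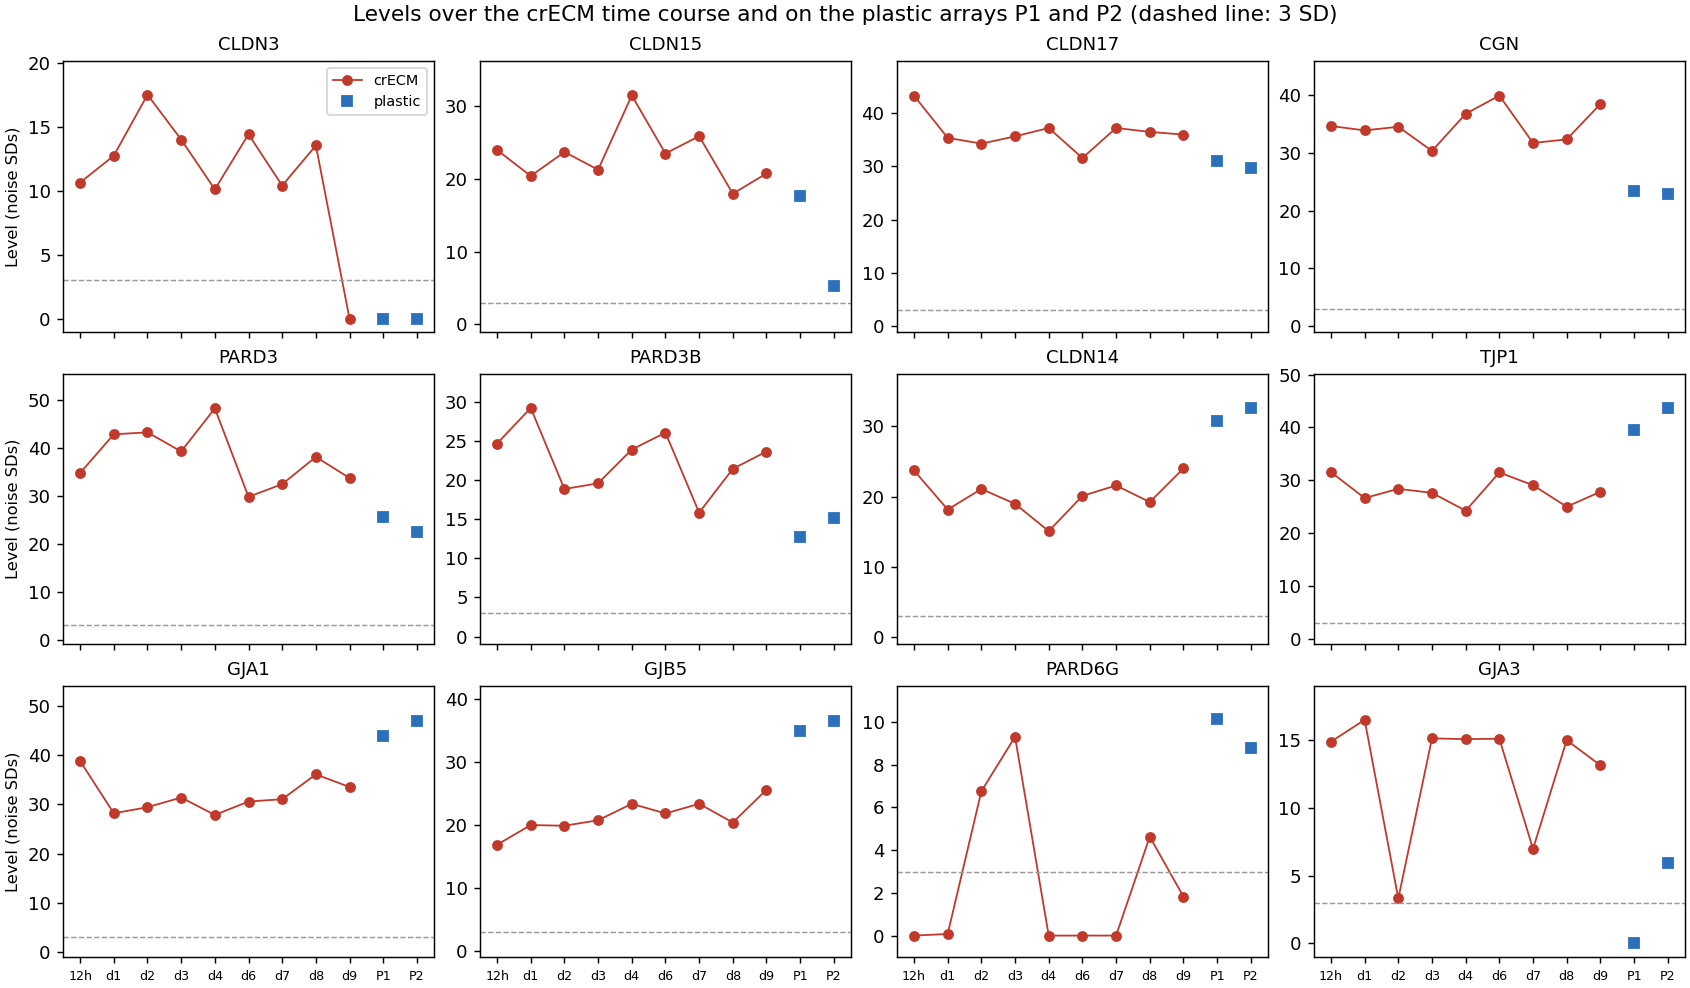
Levels in noise SDs of the 11 junction genes past the test and of GJA3, over the crECM arrays at 12 h (12h) and days 1 to 9 (d1 to d9), and on the plastic arrays P1 and P2. Lines join the crECM time points and the dashed line marks 3 SD. CLDN3 stands at 10.1 to 17.5 SD through day 8 and at noise on day 9 and on both plastic arrays, while GJB5 and TJP1 stay below plastic at every time point.

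Of the 11 connexins tested, 2 were lower on crECM and 9 did not pass, beside 22.4% of all probes lower. GJA1, the most widely distributed connexin, was between 27.8 and 38.8 SD on crECM with a median of 31.0 SD, against 43.9 and 46.9 SD on plastic. The groups did not overlap, with a log2 change of -0.52 (SE 0.12, adjusted p = 0.00432), or 1.43-fold lower. Without the second plastic array the adjusted p was 0.0809. GJB5, a connexin of the skin, was between 16.8 and 25.6 SD on crECM with a median of 20.7 SD, against 34.9 and 36.5 SD on plastic. Its log2 change was -0.76 (SE 0.14, adjusted p = 0.00118), or 1.69-fold lower, with an adjusted p of 0.0199 and 0.0357 when either plastic array was left out. Without the regression the log2 changes of GJA1 and GJB5 were 0.58 and 0.59, below the 1.28 of the median probe.

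The connexins GJB1, GJA9 and GJB6 were lower than plastic on most crECM arrays without passing the test. GJB1, of liver and myelinating glia, was between 19.1 and 28.7 SD on crECM, against 31.8 and 30.1 SD on plastic, with no overlap (log2 change -0.35, adjusted p = 0.0577). GJA9 did not overlap either, at 15.4 to 35.3 SD on crECM against 39.2 and 42.1 SD on plastic (log2 change -0.59, adjusted p = 0.0683). GJB6, a connexin of the inner ear and skin, was at 11.1 to 32.1 SD on crECM against 31.8 and 32.1 SD on plastic (log2 change -0.63, adjusted p = 0.0853). GJA3, a connexin of the lens, was between 3.32 and 16.5 SD on crECM with a median of 15.0 SD. On plastic it was at the lowest value of the first array and at 5.94 SD on the second. The raw intensity behind that second value, 23.4, lay below the noise peak of the array, at 29. Its log2 change of 1.46 did not pass the test (SE 0.55, adjusted p = 0.05002), and day 2 lay below the second plastic array. GJA3 was also the 1 junction gene that met the off-on criterion, a mean log10 value under 0 on plastic and over 1 on crECM, as did 3.97% of all probes. Without the first plastic array it no longer met it, whereas without day 9 CLDN3 met it as well. The opposite criterion was met by no junction gene over all arrays and by PARD6G without the second plastic array.

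GJB2, a connexin of the skin and inner ear that lies beside GJA3 and GJB6 on chromosome 13 in GRCh38.p14, was at or under 0.791 SD on crECM, against 2.67 and 3.43 SD on plastic. It was above 3 SD on 1 array and was not tested. Its raw intensity had a median of 37.1 on crECM, against 11.8 and 11.4 on plastic, the opposite order to the deposited levels. Both plastic intensities lay below the noise peaks of their arrays, at 26.75 and 29. Which step of the processing turned the order was not tested. GJD4 was above 3 SD only on day 8, at 6.62 SD. GJA4 and GJA5, connexins of blood vessels, GJA10, GJC1 and GJD2, a connexin of neurons, had log2 changes between -0.11 and 0.42, none past the test.

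Over the crECM time course the junction genes had no trend that passed the test. None of the 40 genes had a slope over log2 of the day at an adjusted p under 0.05, and 1 of 19858 probes did (0.00504%). At an unadjusted p under 0.05 there were 3 junction genes, 7.5% of them beside 7.42% of all probes. The 12 h array differed from the later days in CLDN23, which was at 29.9 SD at 12 h and between 40.2 and 53.5 SD later, with a log2 difference of -0.68 (adjusted p = 0.0429). It was the 1 junction gene past this test, beside 4.36% of all probes. GJB6 had the largest difference of the 40 genes, at 11.1 SD against 19.3 to 32.1 SD later, which did not pass (log2 difference -1.01, adjusted p = 0.0572). The 12 h array held the highest or the lowest crECM value of 17 of the 40 genes, or 42.5%, beside 37.7% of all probes. For day 4 these shares were 35% and 27.7%, for day 2 27.5% and 12.3%, and for day 7 5% and 16.1%. The other days held that value for 3 to 8 genes each.

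The partners of the junction proteins were listed with earlier results known, and their counts stand beside the 45.2% of all probes that passed the test either way. Of 21 plaque and polarity partners tested, 3 were higher on crECM, 7 were lower and 11 did not pass, with a median log2 change of -0.06. LIN7B, a PDZ scaffold of the Crumbs complex, had 21.3 to 33.1 SD on crECM against 10.6 and 12.4 SD on plastic (log2 change 1.21, adjusted p = 0.000207), and SYMPK, an RNA processing factor also found at tight junctions, had 47.1 to 73.8 SD against 34.4 and 36.6 SD (0.77, adjusted p = 0.00228). MPDZ, a multi-PDZ scaffold that binds claudins, was at or under 3.18 SD on crECM and had 5.50 and 8.06 SD on plastic. It passed the filter mainly through plastic, and with 8 of its crECM values at the floor its p is not given. PALS1, which links Crumbs to that complex, had 18.0 to 26.8 SD on crECM against 36.8 and 40.5 SD on plastic (log2 change -0.89, adjusted p = 0.000352).

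Of 13 other membrane proteins of junctions and channels, 2 were higher, 1 was lower and 10 did not pass. PANX1, a channel protein related in shape to connexins, was above 3 SD on 8 of 9 crECM arrays, with a median of 16.8 SD, and at noise on both plastic arrays, which stand at the floor, so that its p is not given either. NECTIN1, an adhesion molecule of adherens junctions, had a median of 20.5 SD on crECM against 4.78 and 13.5 SD on plastic (1.51, adjusted p = 0.00899), and MARVELD3, a relative of occludin, had 10.5 to 22.0 SD against 29.1 and 31.1 SD (-0.76, adjusted p = 0.0207). All 6 adherens junction core genes passed the test, 3 higher and 3 lower, beside 45.2% of all probes. CDH1, the epithelial cadherin, was at 6.37 to 21.6 SD on crECM against 33.4 and 39.2 SD on plastic (log2 change -1.11, adjusted p = 0.0330), and CTNNB1, its partner beta-catenin, was under 3 SD on every crECM array and at 4.15 and 8.24 SD on plastic. CTNNB1 passed the filter only through the plastic arrays, and its crECM values all stand at the floor, so that its p has no spread behind it in that group. CTNND1 had 3.33 to 18.2 SD on crECM, against 4.34 SD on the first plastic array and a value at the floor on the second. Its log2 change was 1.53 (adjusted p = 0.0232), but 0.72 with rebuilt values and 0.71 with quantile normalization. JUP, plakoglobin, had a log2 change of 0.40 (adjusted p = 0.0376). Of 15 transcription and splicing factors of epithelial junction genes, 5 were lower and 10 did not pass, beside 22.4% of all probes lower. The lower ones included GRHL2, an activator of claudin genes, at 23.8 to 31.4 SD on crECM against 48.4 and 42.0 SD on plastic (-0.70, adjusted p = 0.000424), and ZEB1, a repressor, above 3 SD on 2 of 9 crECM arrays against 6.97 and 9.76 SD on plastic, with 7 crECM values at the floor.

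Markers of cell types were read on the same arrays. The 7 epithelial markers with a probe summed to between 490 and 1124 SD on crECM and 571 and 627 SD on plastic. The keratins KRT19, KRT7 and KRT18 made up most of each sum. Of these 7, CLDN3 was higher, CDH1 was lower and 5 did not pass the test. The sums of the 5 endothelial markers (90.6 to 117 SD on crECM, 82.9 and 84.1 SD on plastic), the 4 leukocyte markers (139 to 178 SD, against 120 and 121 SD) and the 6 muscle and lens markers (73.7 to 96.3 SD, against 52.9 and 60.4 SD) were higher on every crECM array, but the members of a list differed. In these lists 2, 1 and 2 genes were higher and 1, 0 and 0 lower, and the leukocyte sum moved mostly with CD3E (median 33.3 SD on crECM, against 5.31 and 5.09 SD on plastic). Those of the 6 fibroblast markers (124 to 146 SD, against 166 and 179 SD) were lower, with 2 genes higher and 3 lower, and those of the 4 nerve and glia markers (98.3 to 149 SD, against 112 and 112 SD) overlapped. All these counts of markers stand beside 22.8% of all probes higher and 22.4% lower on crECM. Under 3 SD on both plastic arrays were PECAM1 and VWF of the 5 endothelial, PDGFRB of the 6 fibroblast and DES, CRYAA and CRYGD of the 6 muscle and lens markers, and the other markers of these lists exceeded 3 SD there. COL1A2 was under 3 SD on every crECM array. The higher calls of VWF, PDGFRB and CRYGD and the lower call of COL1A2 thus have a whole group at the floor. As with CLDN3, these calls do not count as support for a change. The part of such genes in the junction results was not tested.

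**Figure D4:**
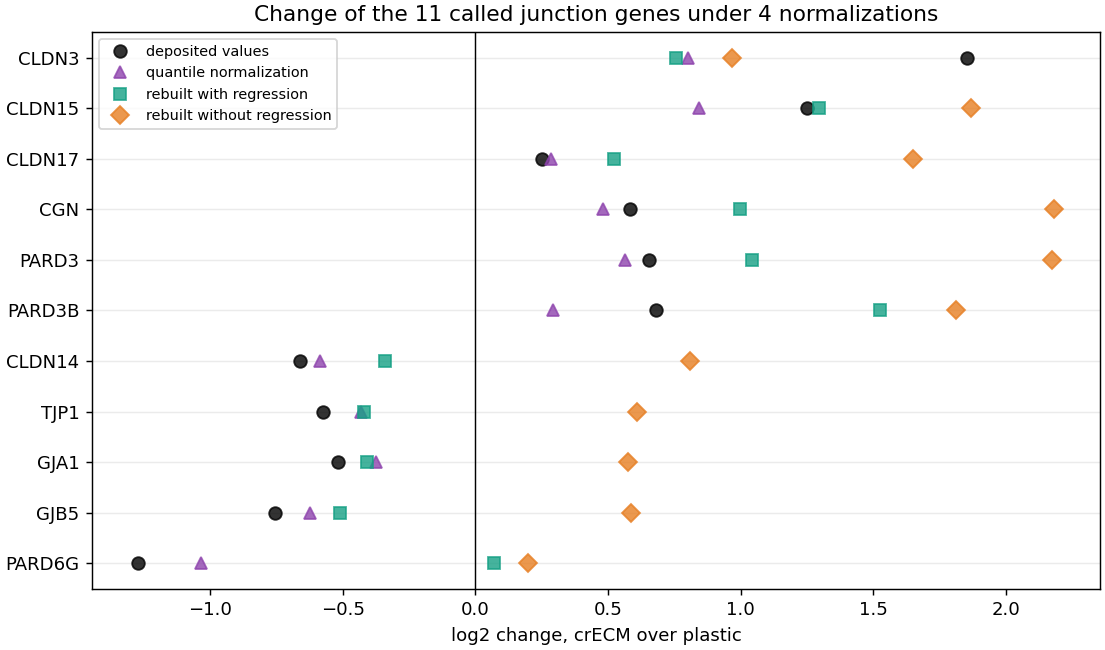
The log2 change, crECM over plastic, of the 11 junction genes past the test with the deposited values, quantile normalization, and values rebuilt from the raw intensities with and without the regression that adjusts the arrays. CGN, PARD3 and the other genes higher on crECM lie right of 0 in all 4. Without the regression the median of all probes is 1.28, and CLDN3 lies below it at 0.97. CLDN14, TJP1, GJA1 and GJB5 lie left of 0 in 3 and right of 0 without the regression. PARD6G lies right of 0 with both sets of rebuilt values.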

How the data were processed

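RNA of RT4 cells was labeled with Cy3 and hybridized to 11 one-color arrays. The authors deposited a raw intensity per probe and array, together with log10 values in 1 table. By the methods of the paper, the authors divided raw intensities by the SD of the noise peak and took log10, and a robust linear regression then brought the arrays to each other. These log10 values deposited by the authors were used as they are. The deposited raw intensity values were used to rebuild the values, with the regression step or leaving it out, and for quantile normalization and the noise peak, read as the highest kernel density near zero (bandwidth 10). The low tail of each array stands at a lowest value of its own, between -5.98 and -3.52 on crECM and at -2.51 and -2.39 on plastic.

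A single gene symbol was given for 17043 of the 22464 probes, several for 172 and none for 5249. The antilogs were floored at 3 SD, taken to log2 and fitted with limma 3.58.1 (R 4.3.3), using the trend option of eBayes. P-values were adjusted by Benjamini-Hochberg across the probes that exceeded 3 SD on 2 or more arrays. A gene was called at an adjusted p under 0.05, by its probe of highest mean over all arrays. Slopes and the 12 h contrast used the 9 crECM arrays, and the lone 12 h array was assumed to vary like the others. Python 3.11.15 with pandas 2.3.3 was used for counts, the exact permutation test over the 55 arrangements of the 2 plastic arrays, and motif matches. In a simulation with 22452 probes, both groups had normal noise with the spread of the crECM arrays. At each size 50 probes well above the floor were changed. Of these, 56% of the 2-fold, 82% of the 3-fold and 100% of the 8-fold changes were found, beside 15 false calls. The dimmer plastic arrays and their adjustment were not simulated, so that these figures hold for that setting only. The number of arrays limits the precision.

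The members and lists were chosen with earlier results of these data known. Full values were given for genes past the test with a log2 change of at least 1 either way and, whatever their values, for CLDN1, CLDN3, CLDN4, CLDN7, OCLN, TJP1, GJA1 and GJB2. Of each other list up to 2 genes in each direction were named. Members named beyond this, and the motifs and promoters shown, were chosen after their values were seen. Alternatives were other floors and filters, rebuilt and quantile-normalized values, array weights, eBayes without a trend, arrays left out and the other probe of a gene. Probes of several symbols were not used.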

Additional observations from a re-analysis of the deposited data

Results flagged for a closer look

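In 9 of 43 member probes the highest or the lowest of the 9 crECM arrays stood far from the rest, by the gap to its neighbor over the whole range, where chance gives about 1 in 20. The share of 20.9% is near the 22.1% of the 20318 probes on the whole array that met the same criterion. Values under 3 SD were set to 3 SD for this. CLDN3 was at the lowest value of the array on day 9 (2.23e-06 SD) and between 10.1 and 17.5 SD on the other crECM arrays. On the same array CLDN9 was lowest, at 18.5 SD against 24.6 to 31.7 SD. On day 1, CLDN6 was at 6.61 SD against 30.8 to 42.4 SD, and PARD6B at 6.15 SD against 12.9 to 22.2 SD. On day 7, CLDN2 was at 10.8 SD against 23.7 to 36.7 SD. At 12 h, GJB6 was at 11.1 SD against 19.3 to 32.1 SD and CLDN23 at 29.9 SD against 40.2 to 53.5 SD. The 2 high values were those of CLDN7 on day 6 (4.72 SD, with the others at or under 3.34 SD) and of GJD4 on day 8 (6.62 SD, with the others at or under 2.03 SD). With 1 array per day, a change on that day and a faulty spot cannot be told apart.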

How the results depend on the processing

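The counts of 6 higher and 5 lower genes became 15 and 3 with rebuilt values and 34 and 0 without the regression, and array weights left 3 higher. With either plastic array left out, 1 to 3 were higher and 2 to 3 lower, 0 to 1 at 3-fold or more and 0 to 1 off-on. The count at 3-fold or more, 1, was 2 with a floor at 1 SD, 11 without the regression and 0 with a floor at 5 SD, only probes above 3 SD on all arrays, rebuilt values, quantile normalization or array weights. The off-on count of 1 was 0 with rebuilt or quantile-normalized values and 2 without day 9, a setting chosen after seeing the data. With rebuilt values 2 genes differed at 12 h. No junction gene had a trend over the days with a floor at 1 SD, no floor, rebuilt values or the 12 h array left out, the settings run for it. Without the regression the log2 change reversed to 0.90 in CLDN1, 0.81 in CLDN14, 0.75 in CLDN4, 0.58 in GJA1, 0.59 in GJB5, 0.87 in OCLN, 0.20 in PARD6G and 0.61 in TJP1, all under the median of all probes, 1.28. Other reversals were PARD6G with rebuilt values (0.070), CLDN4 with quantile normalization (0.033) and with a plastic array left out (-0.21 to 0.17), CLDN7 without a floor (-0.71) and CLDN15 at its other probe (-0.17). The causes were not tested. CGN passed the test in all 16 alternatives run for it, and TJP1 and GJB5 in 15 of 16 with the same direction. Over the 15 named genes tested, 192 values kept direction and side of the threshold, 30 lost the threshold and 13 reversed. No paired analysis was possible, since each crECM array is a time point of its own and the labels of the plastic arrays give no time. Signal limits CLDN7, CLDN10, TJP3, GJB2 and GJD4, which were at or near noise.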
